A study of Mus musculus with 5 samples.

Results

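The 10 smooth muscle cytoskeleton genes Acta2, Tagln, Cnn1, Myh11, Smtn, Lmod1, Cald1, Mylk, Synpo2 and Vcl were followed through 3 lists of chromatin immunoprecipitation sequencing (ChIP-seq) peaks. They were chosen by their gene names, with their peaks in these lists already known, out of 21938 annotated protein-coding genes. A peak belonged to a gene when the deposited list gave it that gene's name, and 28 of the 89451 peaks did. The counts, positions and overlaps of these peaks were among the values used for the choice, so they are given as a description and no test was made on them. One list was for hnRNPA1 in Zhx1-KO cells, and the others were for ZHX1 and for hnRNPA1 in 46C-Ctrl cells. All cells were cardiac progenitor (CP) cells made from 46C mouse embryonic stem cells, and in Zhx1-KO cells the Zhx1 gene had been disrupted with CRISPR/Cas9. Whether the knockout line was 1 clone is not stated in the sources used here, nor is the number of cultures behind each library. No ZHX1 library of Zhx1-KO cells was analysed here, so the lists do not check the knockout. Each group had 1 library, so no spread between replicates could be measured and no difference between the lists was tested. The 2 input libraries were not analysed here.

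These genes build and steer the contractile apparatus of smooth muscle. Smooth muscle contracts when calcium and calmodulin activate the myosin light chain kinase encoded by Mylk, which phosphorylates myosin and lets it pull on actin filaments. Calponin, caldesmon and transgelin bind those filaments, and vinculin ties them to adhesion sites in the membrane. Many of these genes are controlled by serum response factor (SRF) with myocardin-family coactivators at a DNA element called the CArG box, and several are also active for a time in the early embryonic heart. ZHX1 is a protein with zinc fingers and homeodomains. hnRNPA1 is an RNA-binding protein of splicing, with a known preference for UAGGG-like RNA, so the DNA letters TAGGG were looked up under the peaks. Peak lists hold no RNA levels, so whether the cells expressed any of the 10 genes could not be checked with them.

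The peaks named for the 10 genes numbered 14 in the Zhx1-KO hnRNPA1 list, 7 in the 46C-Ctrl ZHX1 list and 7 in the 46C-Ctrl hnRNPA1 list. With the 2 longer lists cut to their 14662 widest peaks, the full length of the 46C-Ctrl hnRNPA1 list, the numbers were 2, 3 and 7. That setting selected by width in the 2 longer lists only, so its turned order does not compare the lists on equal terms. With only peaks wider than the smallest width of each list, the numbers were 8, 3 and 3. The whole lists held 51545, 23244 and 14662 peaks in the order Zhx1-KO hnRNPA1, 46C-Ctrl ZHX1 and 46C-Ctrl hnRNPA1. Per 10000 peaks of a whole list, the named peaks numbered 2.72 for Zhx1-KO hnRNPA1 (95% Wilson interval 1.62 to 4.56), 3.01 for 46C-Ctrl ZHX1 (1.46 to 6.22) and 4.77 for 46C-Ctrl hnRNPA1 (2.31 to 9.85). The intervals cover counting error only. The Zhx1-KO hnRNPA1 list was 3.52 times as long as the 46C-Ctrl hnRNPA1 list, and it held 2 times as many peaks named for these genes. For ZHX1 over hnRNPA1 in 46C-Ctrl cells the ratio was 1.59 for whole lists and 1 for these genes. Read depth and peak heights are not part of the lists, so what set the lengths of the lists was not tested.

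By name, 8 of the 10 genes had a peak in the Zhx1-KO hnRNPA1 list, where 57.8% of all protein-coding genes had one. In the 46C-Ctrl ZHX1 list 4 of 10 had a named peak, against 40.5% of all genes, and in the 46C-Ctrl hnRNPA1 list 4 of 10, against 31.2%. Mylk and Cald1 were named in all 3 lists, which 17.9% of all genes were. Tagln, Myh11, Cnn1 and Smtn were named in the Zhx1-KO hnRNPA1 list and in neither 46C-Ctrl list, as were 18.0% of all genes. Acta2 was named in both hnRNPA1 lists, Vcl in the Zhx1-KO hnRNPA1 and 46C-Ctrl ZHX1 lists, and Synpo2 in both 46C-Ctrl lists. Lmod1 was named in none, like 30.2% of all genes.

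**Figure D1:**
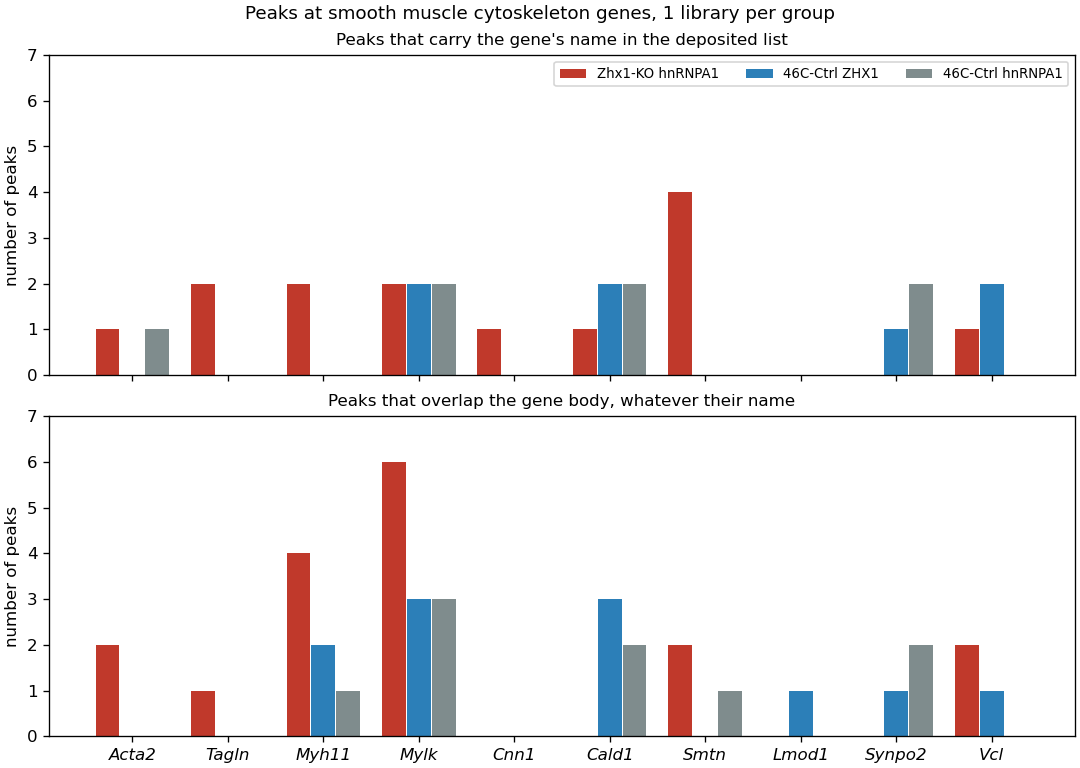
Number of peaks (vertical axis) at each of the 10 genes (horizontal axis), with a bar for each of the Zhx1-KO hnRNPA1, 46C-Ctrl ZHX1 and 46C-Ctrl hnRNPA1 lists, by deposited name in the upper panel and by overlap with the gene body in the lower. Mylk had the most peaks over the gene body, 6, 3 and 3 in that order of lists, and Smtn had 4 named peaks in the Zhx1-KO hnRNPA1 list and none in the others.

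A peak's deposited name and its position did not always point to the same gene. Of the 46 peaks that were named for a member or lay over its annotated body, 19 met both rules, 9 were named for the gene but lay outside it, and 18 lay inside the gene under another name. By position, peaks overlapping the gene bodies numbered 17 in the Zhx1-KO hnRNPA1 list, 11 in the 46C-Ctrl ZHX1 list and 9 in the 46C-Ctrl hnRNPA1 list. They lay in 6, 6 and 5 of the 10 genes, against backgrounds of 42.3%, 28.1% and 20.5% of all protein-coding genes. These backgrounds are not matched for gene length. Myh11 and Mylk had a peak over the body in all 3 lists, as had 9.25% of all genes. Acta2 and Tagln had body peaks in the Zhx1-KO hnRNPA1 list alone, a pattern of 17.7% of all genes. Lmod1 had one in the 46C-Ctrl ZHX1 list alone, like 7.18%, and Cnn1 had one in no list, like 44.8%.

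**Figure D2:**
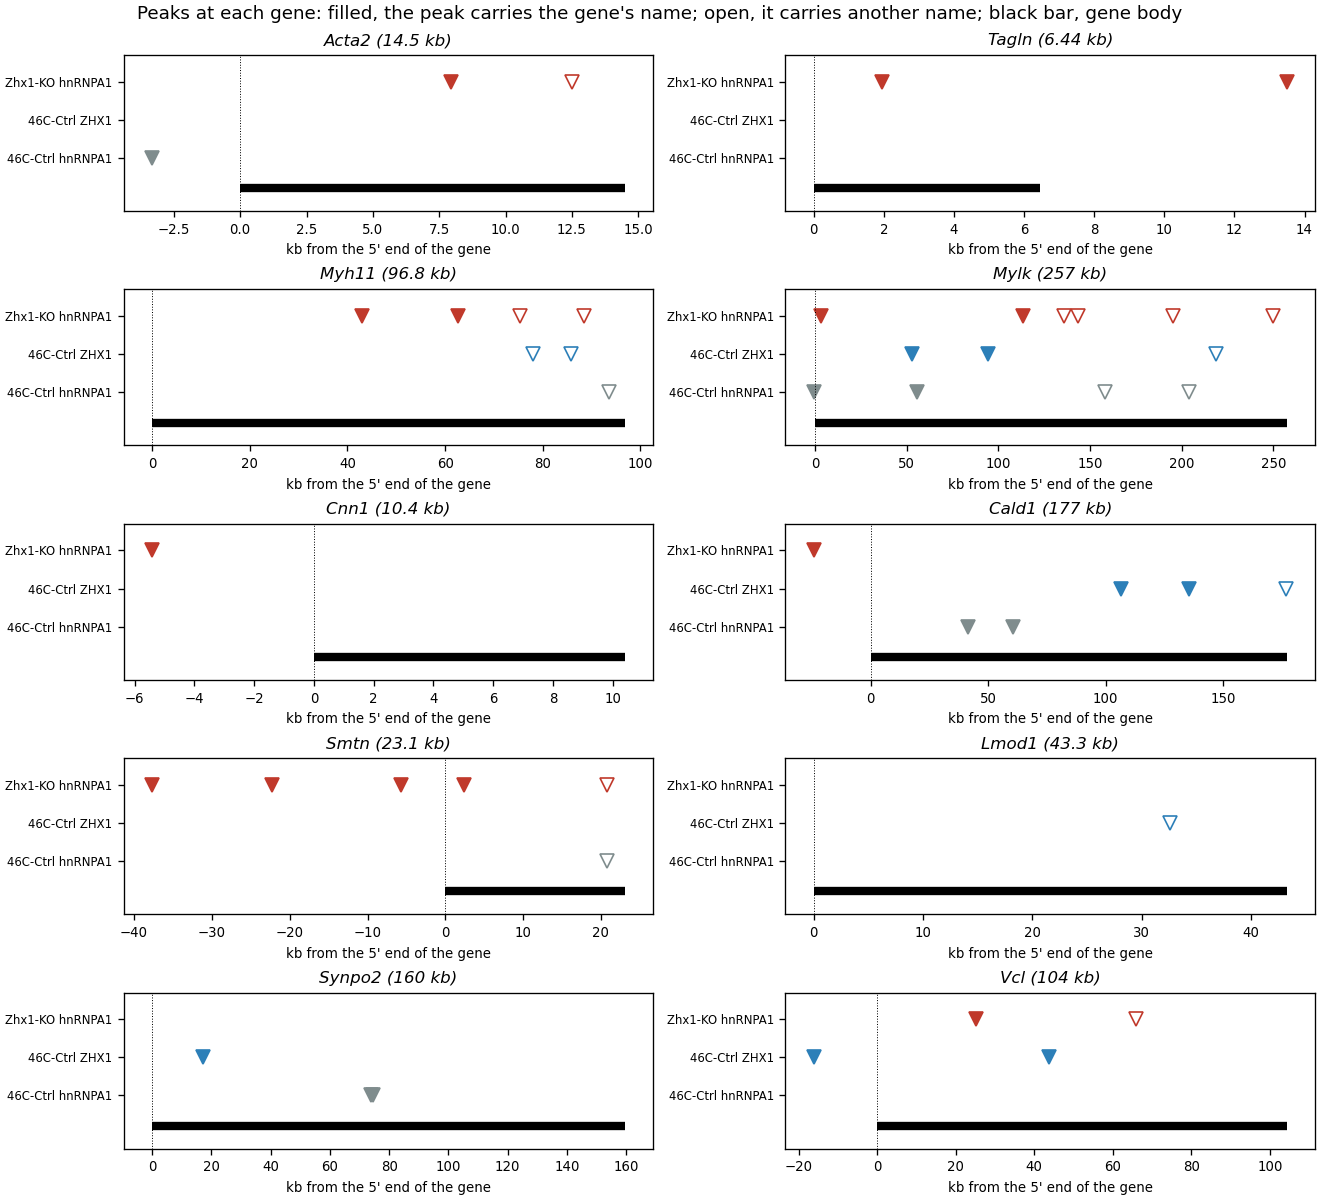
Peak positions along each of the 10 genes in kb from the 5' end of the gene, drawn in the direction of transcription, with 1 row of markers for each list, filled where the peak carried the gene's name and open where it carried another, and the gene body as a bar. Most Mylk and Myh11 peaks lay inside the gene, whereas 3 of the 5 Zhx1-KO hnRNPA1 peaks of Smtn lay upstream of it; the pair of 46C-Ctrl hnRNPA1 peaks of Synpo2, 0.541 kb apart, appear as a single marker.

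The only position of these genes that 2 lists shared lay in an intron of Smtn, which codes for smoothelin, an actin-binding protein of contractile smooth muscle. Smtn lies on the reverse strand at chr11:3517523-3540612 (GRCm38). The Zhx1-KO hnRNPA1 peak covered chr11:3519639-3519922 and the 46C-Ctrl hnRNPA1 peak chr11:3519674-3519992. They overlapped by 249 bp, which was 87.7% of the Zhx1-KO peak and 78.1% of the 46C-Ctrl peak, and their centres were 52.5 bp apart. Both peaks carried the deposited name Selenom, the neighbouring gene for a selenoprotein of the endoplasmic reticulum at chr11:3514684-3517351, although the position lay 20.7 kb inside Smtn and 4.99 kb from the 5' end of Selenom. No peak of the 46C-Ctrl hnRNPA1 list was therefore named Smtn. The nearest ZHX1 peak of 46C-Ctrl cells was 116 kb away. The stretch common to both hnRNPA1 peaks is shown because it is the shared site; it is given 5' to 3' on the forward strand, is unique in the genome by 32-base words, has no repeat-masked bases, and holds neither TAGGG nor CCAAT nor a CArG box on either strand, so no letters are in capitals.
Smtn shared hnRNPA1 position, chr11:3519674-3519922: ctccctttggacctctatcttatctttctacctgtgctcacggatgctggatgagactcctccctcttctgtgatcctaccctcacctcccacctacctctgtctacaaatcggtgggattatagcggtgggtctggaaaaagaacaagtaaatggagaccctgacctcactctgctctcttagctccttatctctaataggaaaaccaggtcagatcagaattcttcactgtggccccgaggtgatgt

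Among the 10 genes, Smtn was also the one with the most Zhx1-KO hnRNPA1 peaks by name, 4, a number that 15.5% of all protein-coding genes reached or passed. A single peak of these, chr11:3538045-3538268, lay inside the gene, in an intron 2.34 kb from its 5' end and 0.647 kb from an annotated start site. The other 3 lay upstream, at 5.54 kb (chr11:3546154-3546414), 22.2 kb (chr11:3562815-3563038) and 37.6 kb (chr11:3578169-3578392) from the 5' end. Within 60 kb of the shared position the Zhx1-KO hnRNPA1 list had 6 peaks, the 46C-Ctrl ZHX1 list none (a count of 0, which allows up to 3) and the 46C-Ctrl hnRNPA1 list 2. Chromosome 11 held more peaks than any other chromosome in each list. Its peaks numbered 4839 for Zhx1-KO hnRNPA1 (9.39% of that list), 1799 for 46C-Ctrl ZHX1 and 1295 for 46C-Ctrl hnRNPA1. The lists thus differed in the same order over the whole chromosome, apart from the 2 46C-Ctrl lists. Whether the counts within 60 kb depart from the rate along the chromosome was not tested. The intronic peak is shown as the Smtn peak nearest to a start site, on the forward strand and again with no letters to capitalise.
Smtn Zhx1-KO hnRNPA1, chr11:3538045-3538268: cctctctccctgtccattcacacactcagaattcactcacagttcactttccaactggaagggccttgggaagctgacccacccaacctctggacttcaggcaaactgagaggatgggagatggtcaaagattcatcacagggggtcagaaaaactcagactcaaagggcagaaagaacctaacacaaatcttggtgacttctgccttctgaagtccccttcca

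**Figure D3:**
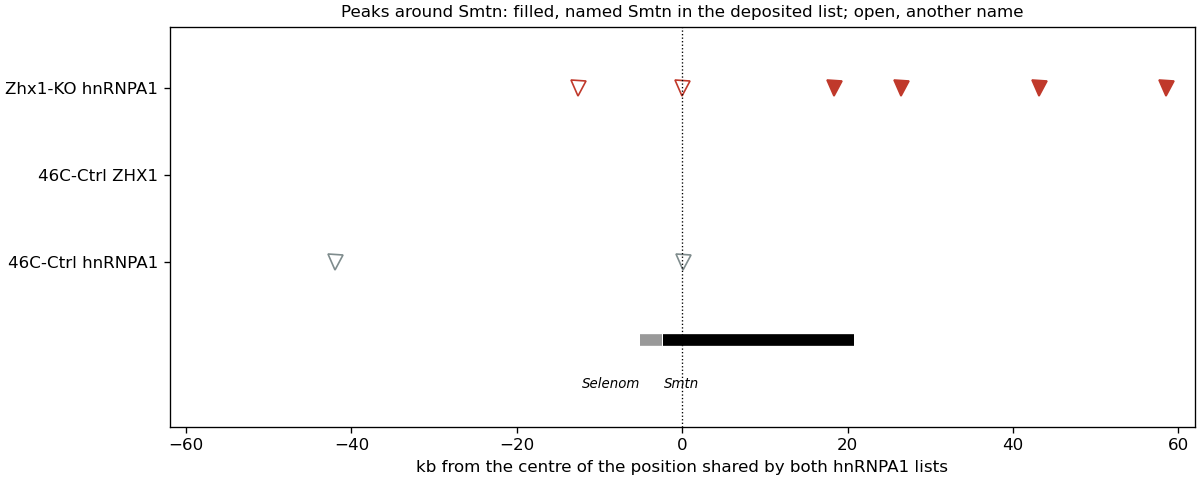
Peaks around the shared Smtn position in kb from its centre, with the Zhx1-KO hnRNPA1, 46C-Ctrl ZHX1 and 46C-Ctrl hnRNPA1 lists on rows of their own and the Smtn and Selenom genes as bars (filled markers carried the name Smtn, and the 5' end of Smtn is on the right). The 2 hnRNPA1 lists had overlapping peaks at 0 kb, the Zhx1-KO list alone had peaks at the 5' end of Smtn and upstream of it, and the ZHX1 row was empty.

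Among the filament and motor genes, the peaks of Acta2, which codes for smooth muscle alpha-actin, were in the hnRNPA1 lists alone. The gene lies on the reverse strand at chr19:34241090-34255590. The Zhx1-KO hnRNPA1 list had an intronic peak named Acta2 at chr19:34247524-34247747, 7.84 kb from the 5' end, and another intronic peak at chr19:34242921-34243220 named Stambpl1, a neighbouring deubiquitinase gene. The 46C-Ctrl hnRNPA1 peak lay outside the gene, 3.21 kb upstream at chr19:34258795-34259017. The named peaks of the 2 hnRNPA1 lists were 11.05 kb apart, so the shared name did not reflect a shared position. The nearest ZHX1 peak of 46C-Ctrl cells was 38.6 kb from the named Zhx1-KO peak.

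Myh11, the smooth muscle myosin heavy chain (reverse strand, chr16:14194535-14291372), had peaks of all 3 lists within its body. The Zhx1-KO hnRNPA1 list had 4, of which chr16:14228677-14228900 in a coding exon and chr16:14248267-14248501 in an intron were named Myh11. The other Zhx1-KO peaks, at chr16:14202842-14203179 and chr16:14216012-14216235, were named Nde1, a centrosomal gene that adjoins Myh11. The 46C-Ctrl ZHX1 peaks at chr16:14205478-14205714 and chr16:14213172-14213399 and the 46C-Ctrl hnRNPA1 peak at chr16:14197684-14197906 also carried the name Nde1. By name alone, Myh11 therefore appeared in the Zhx1-KO list only, whereas by position it held peaks of every list. These peaks lay near each other without touching: 2.298 and 2.612 kb separated Zhx1-KO hnRNPA1 from ZHX1 peaks, and 4.94 kb separated the nearest peaks of the 2 hnRNPA1 lists.

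Mylk (forward strand, chr16:34745210-35002420) was the longest of the 10 genes and had the most peaks, 6 over the body in the Zhx1-KO hnRNPA1 list, 3 in the 46C-Ctrl ZHX1 list and 3 in the 46C-Ctrl hnRNPA1 list. By name it had 2 in each. The Zhx1-KO hnRNPA1 peak nearest the 5' end, chr16:34748185-34748491, was in an intron 2.98 kb into the gene. The 46C-Ctrl hnRNPA1 peak nearest the 5' end, chr16:34744297-34744582, lay 0.628 kb upstream of it, and 3.602 kb separated these peaks. The 46C-Ctrl hnRNPA1 peaks over the body, at chr16:34800383-34800630, chr16:34903394-34903655 and chr16:34949134-34949356, were intronic, the second 1.48 kb from an internal start site. The 46C-Ctrl ZHX1 peaks at chr16:34839383-34839610 and, in a coding exon, chr16:34963522-34963955 were not within 2 kb of a Mylk start site. The ZHX1 peak at chr16:34797817-34798044 and the 46C-Ctrl hnRNPA1 peak at chr16:34800383-34800630 were 2.34 kb apart, the smallest distance between the 2 factors at any of these genes in 46C-Ctrl cells.

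The 3 Mylk sequences from 46C-Ctrl cells are shown, the first because it is the hnRNPA1 peak closest to the 5' end of any of the 10 genes, the others as the closest ZHX1 and hnRNPA1 pair. They are on the forward strand, and none of them contains any of the motifs searched at Smtn.
Mylk 46C-Ctrl hnRNPA1, chr16:34744297-34744582: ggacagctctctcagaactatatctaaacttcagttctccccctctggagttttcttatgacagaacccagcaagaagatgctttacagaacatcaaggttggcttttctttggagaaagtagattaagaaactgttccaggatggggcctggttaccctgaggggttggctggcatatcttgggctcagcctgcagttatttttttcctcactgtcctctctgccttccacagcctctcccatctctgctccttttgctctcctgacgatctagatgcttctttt
Mylk 46C-Ctrl ZHX1, chr16:34797817-34798044: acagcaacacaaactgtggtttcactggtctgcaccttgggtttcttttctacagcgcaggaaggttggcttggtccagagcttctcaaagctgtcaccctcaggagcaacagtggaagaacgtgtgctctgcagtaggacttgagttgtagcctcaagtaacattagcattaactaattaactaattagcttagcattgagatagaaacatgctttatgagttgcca
Mylk 46C-Ctrl hnRNPA1, chr16:34800383-34800630: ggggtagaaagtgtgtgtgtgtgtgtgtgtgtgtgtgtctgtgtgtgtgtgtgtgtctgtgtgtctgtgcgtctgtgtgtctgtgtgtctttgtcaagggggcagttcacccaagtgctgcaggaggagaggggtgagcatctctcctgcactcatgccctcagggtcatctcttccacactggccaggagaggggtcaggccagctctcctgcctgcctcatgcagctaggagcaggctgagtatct
The last of these opens with a run of tg repeats, and 49.6% of its bases are repeat-masked in the reference. Of the Zhx1-KO hnRNPA1 peaks in the body, chr16:34888596-34888828, which was named 1700119H24Rik, was wholly repeat-masked, and its 32-base words occurred a median of 12988 times in the genome. Reads from such words cannot be placed at 1 copy with certainty. The other 5 Zhx1-KO body peaks were chr16:34748185-34748491, chr16:34858663-34858990, chr16:34880970-34881193, chr16:34940393-34940616 and chr16:34994805-34995093, the last over an annotated internal start site.

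Tagln codes for transgelin (SM22-alpha), an actin-binding protein that is an early marker of smooth muscle. It is the shortest of the 10 genes (reverse strand, chr9:45929619-45936058), and both of its peaks were from the Zhx1-KO hnRNPA1 list. The peak at chr9:45933946-45934277 was intronic, 1.78 kb from the 5' end and 1.30 kb from an annotated start site. The other, chr9:45922396-45922742, lay downstream of Tagln within the neighbouring gene Pcsk7, a proprotein convertase. The nearest 46C-Ctrl peaks to the intronic peak were 20.4 kb away for ZHX1 and 24.3 kb for hnRNPA1. The central 300 bases of the intronic peak are shown, since it was 1 of the few promoter-near peaks. Of the bases of the whole peak, 43.1% are repeat-masked in the reference. Whether the TAGGG match lies in the masked part was not tested. The sequence is on the forward strand with the single TAGGG match in capitals.
Tagln Zhx1-KO hnRNPA1, chr9:45933962-45934261: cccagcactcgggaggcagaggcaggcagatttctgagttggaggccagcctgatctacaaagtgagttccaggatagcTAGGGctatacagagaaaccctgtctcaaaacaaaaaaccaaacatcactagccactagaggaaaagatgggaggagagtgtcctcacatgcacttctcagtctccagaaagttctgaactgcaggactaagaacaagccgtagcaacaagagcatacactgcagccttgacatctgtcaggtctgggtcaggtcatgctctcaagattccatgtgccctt

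Cnn1 codes for calponin, which binds actin and slows the myosin ATPase (forward strand, chr9:22099216-22109630). Its single peak, chr9:22093593-22094004, was from the Zhx1-KO hnRNPA1 list and lay 5.21 kb upstream. At 412 bp it was the widest Zhx1-KO hnRNPA1 peak named for these genes. The nearest 46C-Ctrl peaks were 14.1 kb away for ZHX1 and 118 kb away for hnRNPA1.

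Cald1, which codes for the actin- and myosin-binding caldesmon, had named peaks in all 3 lists, but the peaks of the 46C-Ctrl and Zhx1-KO lists lay in different places. The gene lies on the forward strand at chr6:34598500-34775473. The single Zhx1-KO hnRNPA1 peak was 24.2 kb upstream of the gene, at chr6:34574117-34574340, and the list had no peak over the body. The 46C-Ctrl ZHX1 list had 3 body peaks, at chr6:34704896-34705228, chr6:34733709-34733968 and chr6:34775105-34775332, the last at the 3' end and named Agbl3. The 46C-Ctrl hnRNPA1 list had 2, at chr6:34639673-34639895 and chr6:34658848-34659070. The closest ZHX1 and hnRNPA1 peaks named Cald1 in 46C-Ctrl cells were 45.8 kb apart.

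Synpo2 (reverse strand, chr3:123076519-123236149) codes for myopodin, an actin-bundling protein of the Z-disc and of smooth muscle. It had no peak by name or over the body in the Zhx1-KO hnRNPA1 list, 1 intronic peak in the 46C-Ctrl ZHX1 list (chr3:123218903-123219130, 17.0 kb from the 5' end) and 2 in the 46C-Ctrl hnRNPA1 list. The hnRNPA1 peaks, at chr3:123161341-123161563 and chr3:123162105-123162541, were 0.541 kb apart, and the second was the widest 46C-Ctrl hnRNPA1 peak of these genes, at 437 bp. Cald1 and Synpo2 were thus the members with body peaks in both 46C-Ctrl lists and none in the Zhx1-KO hnRNPA1 list, a pattern of 394 protein-coding genes, or 1.80%. The central 300 bases of the wider hnRNPA1 peak are shown on the forward strand because it is the widest of its list here, with its TAGGG match in capitals.
Synpo2 46C-Ctrl hnRNPA1, chr3:123162173-123162472: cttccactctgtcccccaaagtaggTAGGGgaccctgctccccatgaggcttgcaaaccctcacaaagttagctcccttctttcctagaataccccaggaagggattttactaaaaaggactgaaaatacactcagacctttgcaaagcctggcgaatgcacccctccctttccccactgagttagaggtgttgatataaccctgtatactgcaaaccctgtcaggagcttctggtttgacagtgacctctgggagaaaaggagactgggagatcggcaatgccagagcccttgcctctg

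Lmod1, whose product leiomodin nucleates actin filaments in smooth muscle (forward strand, chr1:135324807-135368065), had a single peak. It was from the 46C-Ctrl ZHX1 list, lay in an intron 32.5 kb from the 5' end at chr1:135357322-135357549, and was named Shisa4, so the gene's own name was in no list. Its sequence is shown as the only peak of this gene and a peak with a CCAAT match (in capitals, forward strand), the core of the element that the factor NF-Y binds.
Lmod1 46C-Ctrl ZHX1, chr1:135357322-135357549: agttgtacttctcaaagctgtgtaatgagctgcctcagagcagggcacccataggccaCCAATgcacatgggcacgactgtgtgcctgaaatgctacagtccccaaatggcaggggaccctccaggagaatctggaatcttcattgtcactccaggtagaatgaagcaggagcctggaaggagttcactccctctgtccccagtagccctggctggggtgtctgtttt

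Vcl codes for vinculin, which links actin to integrin and cadherin adhesions (forward strand, chr14:20929398-21033676). The Zhx1-KO hnRNPA1 list had 2 peaks in its body, chr14:20954317-20954542, named Vcl, and chr14:20995191-20995414, named Ap3m1 for an adaptor subunit gene. The 46C-Ctrl ZHX1 list had an intronic peak at chr14:20973101-20973328 and a peak 16.0 kb upstream at chr14:20912995-20913369. The 46C-Ctrl hnRNPA1 list had none, and its nearest peak was 86.8 kb from the named Zhx1-KO peak. That Zhx1-KO peak was the only named member peak made mostly of multi-copy sequence, with a median of 3 copies for its 32-base words and 92.9% of its bases repeat-masked.

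By place in the gene, of the named peaks 7 of 14 in the Zhx1-KO hnRNPA1 list, 6 of 7 in the 46C-Ctrl ZHX1 list and 5 of 7 in the 46C-Ctrl hnRNPA1 list were intronic, and 5, 1 and 2 lay upstream of the gene. Over all peaks named for a protein-coding gene, 27.5%, 29.1% and 29.8% were intronic and 39.4%, 38.5% and 39.9% upstream in the same order of lists, a difference that was not tested. These shares are not matched for gene length, and Mylk, Cald1 and Synpo2 are among the longest 10% of genes. Within 2 kb of an annotated start site, the Zhx1-KO hnRNPA1 list had a peak at 3 of the 10 genes (Tagln, Smtn and Mylk), against a background of 21.0% of all genes. The 46C-Ctrl ZHX1 list had a peak there at 0 of 10 genes, against 12.1%, and the 46C-Ctrl hnRNPA1 list at 1 (Mylk, with 2 peaks), against 6.77%. The Zhx1-KO and 46C-Ctrl hnRNPA1 peaks near Mylk start sites lay at different start sites and did not overlap. The other 7 genes had no such peak in any list, as had 67.2% of all genes.

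The 10 genes differ widely in length, between 6.44 kb for Tagln and 257 kb for Mylk, and genes with more sequence held more peaks in every list. Among the longest 10% of genes, those of at least 110 kb, 92.9% had a Zhx1-KO hnRNPA1 peak over the body, 78.1% a 46C-Ctrl ZHX1 peak and 64.6% a 46C-Ctrl hnRNPA1 peak. Mylk, Cald1 and Synpo2 belong to that group, where the means were 5.02, 2.22 and 1.46 peaks per gene in the same order of lists. Mylk, with 6, 3 and 3, was above each mean, but at 257 kb it was also longer than the median of the group, 186 kb. Cald1 and Synpo2, with 0 Zhx1-KO hnRNPA1 peaks, were among the 7.11% of that group without one, and 34 genes of the group (1.55%) had peaks in both 46C-Ctrl lists and none in the Zhx1-KO list. Of the shorter genes with a Zhx1-KO hnRNPA1 body peak, Tagln was in a length group where 17.6% of genes had one, Acta2 where 32.1% did, Smtn where 41.0% did, and Myh11 and Vcl where 77.0% did. Cnn1 and Lmod1 had no such peak, in length groups where 25.8% and 64.8% of genes had one.

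**Figure D4:**
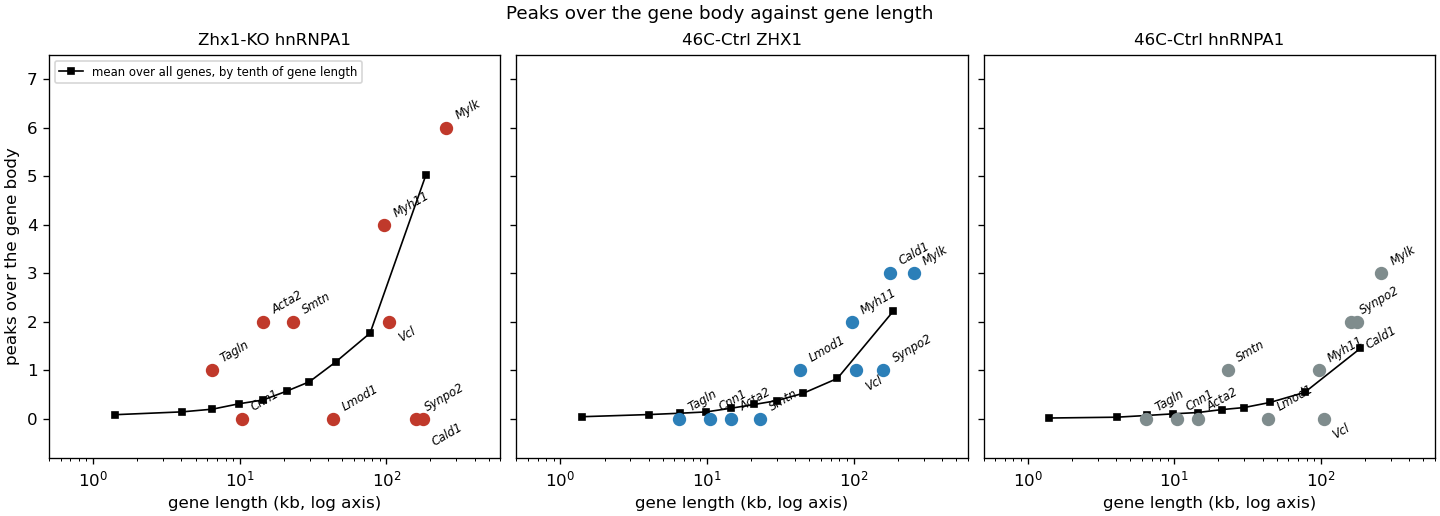
Peaks over the gene body (vertical axis) against gene length in kb (log axis) for the 10 genes in the Zhx1-KO hnRNPA1, 46C-Ctrl ZHX1 and 46C-Ctrl hnRNPA1 lists, with the mean over all protein-coding genes in each of 10 length groups as a line. The line ends at the median length of the longest group, 186 kb, and Mylk lay to the right of that end and higher than it in all 3 panels. Cald1 and Synpo2 lay at 0 in the Zhx1-KO hnRNPA1 panel, where the mean of their length group was 5.02.

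Over the 893 kb of the 10 gene bodies, peaks lay at 1.90 per 100 kb in the Zhx1-KO hnRNPA1 list (95% exact Poisson interval 1.11 to 3.05), 1.23 in the 46C-Ctrl ZHX1 list (0.615 to 2.20) and 1.01 in the 46C-Ctrl hnRNPA1 list (0.461 to 1.91). The pooled densities over all protein-coding genes were 2.13, 0.995 and 0.640 per 100 kb. The median number of body peaks per gene was 1.5 for Zhx1-KO hnRNPA1, 1 for 46C-Ctrl ZHX1 and 0.5 for 46C-Ctrl hnRNPA1 over the 10 genes, against 0 in each list over all genes. These medians are not matched for gene length. In the longest 10% of genes, with Mylk, Cald1 and Synpo2, the medians were 4, 2 and 1 in the same order of lists. In the length group below it, with Myh11 and Vcl, they were 1, 1 and 0.

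Overlap between lists was rare at these genes and over whole lists. Of the peaks tied to the 10 genes by name or position, 1 of 23 in the Zhx1-KO hnRNPA1 list overlapped a peak of another list by at least 1 bp (4.35%, 95% Wilson interval 0.772 to 21.0), against 3.02% of that whole list. In the 46C-Ctrl ZHX1 list it was 0 of 12, which allows a share of up to 25.0%, against 6.50% of all ZHX1 peaks. In the 46C-Ctrl hnRNPA1 list it was 1 of 11 (9.09%, 1.62 to 37.7), against 7.73%. Both counts of 1 are the Smtn position, which was among the values used to choose these genes. The shares are therefore a description, and no inference is drawn from their intervals. The intervals also treat peaks of the same gene as independent. The median distance to the nearest peak of the other list was 22.2 kb for Zhx1-KO hnRNPA1 to 46C-Ctrl hnRNPA1, where it was 50.9 kb over all Zhx1-KO peaks. It was 34.9 kb for Zhx1-KO hnRNPA1 to 46C-Ctrl ZHX1 (31.8 kb over all) and 32.6 kb for 46C-Ctrl ZHX1 to 46C-Ctrl hnRNPA1 (47.5 kb over all).

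In sequence, the named peaks were short and mostly of unique DNA. Their median width was 230.5 bp in the Zhx1-KO hnRNPA1 list, 228 bp in the 46C-Ctrl ZHX1 list and 223 bp in the 46C-Ctrl hnRNPA1 list, against 271, 259 and 257 bp over whole lists. The smallest width in each list, 224, 228 and 223 bp, was that of 6, 4 and 4 of them. Multi-copy sequence (a median of 2 or more copies for 32-base words) made up 1 of 14, 0 of 7 and 0 of 7 named peaks, against 34.0%, 27.9% and 27.4% of the whole lists. Median GC content was 49.7%, 44.3% and 44.4%, against 48.3%, 46.3% and 46.7%.

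The letters TAGGG, on either strand, occurred in 4 of the 14 Zhx1-KO hnRNPA1 peaks, 2 of the 7 46C-Ctrl ZHX1 peaks and 2 of the 7 46C-Ctrl hnRNPA1 peaks named for these genes. Over whole lists 35.3%, 34.4% and 35.0% of peaks held them, so the share in the ZHX1 list was within 1 percentage point of that in either hnRNPA1 list. CCAAT occurred in 3, 3 and 0 of the named peaks, against 38.2%, 36.4% and 36.3%. The CArG box was searched as the strict SRF consensus, a pair of C, 6 letters of A or T, and a pair of G, and no named peak of any list held it whole, against 1.61%, 1.71% and 1.66% of all peaks. The median distance of the named peaks to the nearest CArG box was 4.26, 6.71 and 7.53 kb, against 5.43, 5.66 and 5.80 kb over whole lists. Peaks that lay over a gene body under another name were left out of these counts. Of those, the Zhx1-KO hnRNPA1 peak chr16:34994805-34995093 in Mylk, named Hacd2, held no whole box. A box touched or crossed its edge, at a distance of 0 kb. A match of letters in these windows is a description and shows no binding site.

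Reference promoters, from 250 bases before to 50 after a start site (RefSeq, GRCm38.p6), were matched for 8 of the 10 genes. Tagln and Myh11 had no match, so their promoters were not searched. Vcl was the only one of the 8 with a strict CArG box, where 1.81% of all genes in the table had one. In Vcl the box begins 227 bases before the start site. Boxes that depart from the strict consensus were not counted. The Vcl promoter was 24.9 kb from the nearest Zhx1-KO hnRNPA1 peak, 15.8 kb from the nearest 46C-Ctrl ZHX1 peak and 61.6 kb from the nearest 46C-Ctrl hnRNPA1 peak. No peak of any list touched a matched promoter of the 8 genes, and the smallest distance was 0.974 kb, at Smtn in the Zhx1-KO hnRNPA1 list. The matched promoter of Mylk, chr16:34784700-34784999, is at an internal start site. The peaks described above at other Mylk start sites were therefore outside this comparison.

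A list of 62 other genes of smooth muscle contraction, actin filaments, adhesion and the SRF pathway was read in the same way. By name, 41 of 62 had a Zhx1-KO hnRNPA1 peak (66.1%), 29 a 46C-Ctrl ZHX1 peak (46.8%) and 24 a 46C-Ctrl hnRNPA1 peak (38.7%), beside 57.8%, 40.5% and 31.2% of all protein-coding genes. All 3 lists named 13 of them (20.97%), beside 17.9% of all genes. Within 2 kb of a start site the numbers were 27, 10 and 8 (43.5%, 16.1% and 12.9%), above the shares of 21.0%, 12.1% and 6.77% given for all genes, a difference that was not tested. Itgb1, the beta-1 integrin that anchors vinculin complexes, had 8 Zhx1-KO hnRNPA1, 7 46C-Ctrl ZHX1 and 3 46C-Ctrl hnRNPA1 peaks by name. Ppp1r12a, the myosin phosphatase subunit that opposes Mylk, had 6, 3 and 2. The SRF coactivator gene Mrtfb had 5, 4 and 2, and Prkg1, the cGMP-dependent kinase that relaxes smooth muscle, had 4, 1 and 2. Position gave other numbers. Over the gene bodies, in the same order of lists, Itgb1 had 2, 0 and 1 peaks and Ppp1r12a had 4, 2 and 1. Mrtfb had 5, 3 and 0, and Prkg1, a gene of 1201 kb, had 16, 7 and 2.

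At promoters of that list, Actg1 (gamma-actin), Tpm1 (tropomyosin), Myh10 (non-muscle myosin) and Zyx (zyxin, an adhesion protein) had 2 Zhx1-KO hnRNPA1 peaks each. In the 46C-Ctrl ZHX1 list Actn1 (alpha-actinin), Tpm3 (tropomyosin), Csrp2 (a LIM-domain protein of smooth muscle) and Itga8 (an integrin subunit) had 1 each. In the 46C-Ctrl hnRNPA1 list Actg1, Tpm3, Cnn2 (a calponin) and Myl12a (a myosin regulatory light chain) had 1 each. None of the 10 smooth muscle genes had more than 1 Zhx1-KO hnRNPA1 peak at a promoter. Srf itself had 2 Zhx1-KO hnRNPA1, 1 46C-Ctrl ZHX1 and 0 46C-Ctrl hnRNPA1 promoter peaks, and Myocd, the gene for myocardin, had 7, 4 and 1 peaks over its body.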

How the data were processed

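ChIP-seq was done for hnRNPA1 in Zhx1-KO cells and for ZHX1 and hnRNPA1 in 46C-Ctrl cells, with 1 library per group. The authors trimmed reads with cutadapt 1.18, dropping reads under 50 bases, and aligned them to GRCm38 (mm10) with Bowtie2 2.3.5.1, removing duplicate and non-unique reads. The authors viewed signals with deepTools 3.3.0, and the submitters' processing notes list BWA 0.7.12-r1039 without a role. How peaks were called, at which threshold and with which inputs is not given in the sources used here. Removing non-unique reads lowers the chance of a peak in multi-copy sequence.

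The deposited lists give positions and a gene name for each peak, with no score, count or signal, so depth is unknown and intervals cover counting error only. Of the 18499 names, 18045 matched a GENCODE M21 symbol, and 261 peaks had no name. Positions were set against GENCODE M21 genes (GRCm38, 1-based) and the RefSeq GRCm38.p6 sequence with Python 3.11.15, numpy 2.4.6, scipy 1.17.1 and numba 0.67.0. The overlap and copy-number code was tested on simulated data. Peaks within 2 kb of any annotated start site counted as promoter peaks, overlap was at least 1 bp, and 2 older gene symbols were matched through RefSeq synonyms.

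The members and gene lists were chosen with earlier results of these data known. Every member is named. Of the other list, up to 4 genes named in all 3 lists and up to 4 with a promoter peak in each list are named, by number of peaks, and Srf and Myocd were added after their values were seen. The cutoffs for promoter, overlap, width, copy number, gap and list length were varied.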

Additional observations from a re-analysis of the deposited data

How the results depend on the processing

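Of 48 alternative settings, 33 left the counts within 1.5 times, or the densities within their interval, and 15 moved them. With the 2 longer lists cut to their 14662 widest peaks, the peaks named for the 10 genes fell to 2 for Zhx1-KO hnRNPA1 and 3 for 46C-Ctrl ZHX1. The genes named fell to 2 and 2. The 46C-Ctrl hnRNPA1 list already had that length and kept its 7 peaks and 4 genes. The order of the lists was then turned round, but the width cut applied to the 2 longer lists only. This order therefore does not compare the lists on equal terms, and its cause was not tested. With only peaks wider than the smallest width, named peaks numbered 8 in the Zhx1-KO hnRNPA1 list, 3 in the 46C-Ctrl ZHX1 list and 3 in the 46C-Ctrl hnRNPA1 list, and the genes named in the 46C-Ctrl lists numbered 2 and 2. Counted over gene bodies, ZHX1 had 11 peaks. With promoters of 5 kb, the genes with a promoter peak numbered 1 for 46C-Ctrl ZHX1 and 3 for 46C-Ctrl hnRNPA1. With a gap of up to 5 kb counted as shared, 3 positions were shared by both hnRNPA1 lists, 2 by Zhx1-KO hnRNPA1 and 46C-Ctrl ZHX1, and 1 by 46C-Ctrl ZHX1 and 46C-Ctrl hnRNPA1. The Smtn position stayed shared when a fraction of at least 0.5 of the narrower peak had to overlap and when multi-copy peaks were left out. No paired analysis was possible because each group had 1 library, and for the same reason no library could be left out. Counts of 0 to 6 peaks per gene and unknown depth limit every comparison here.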
